A study of Mus musculus with 8 samples.

Results

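The genes described here are the 44 nuclear-encoded subunits of respiratory complexes II, III, IV and V, with the electron carrier cytochrome c counted among them. They were taken by name, not by a cut on measured values, from a fixed list chosen with earlier results of these data known. They comprise 4 genes of complex II, 9 of complex III, 1 for cytochrome c, 16 of complex IV and 14 of complex V. All 44 were present by symbol among the 23008 mouse genes of the deposited table, and all 44 were tested. The study measured total RNA by sequencing in the gastrocnemius, a mixed calf muscle, of wild-type C57BL/6J mice. All animals received an AAV9 vector with a GNDM construct, an epigenome editor, through the tail vein. The m31 group (4 libraries) carried a guide aimed at Lama1, a laminin gene, and the control group (4 libraries) carried a guide with no target. The age at injection is given as 7 weeks in one label and as 7 to 12 weeks in the series' design, and muscle was taken 11 weeks later. The vector dose and the promoter driving the construct were not given in the sources used here, no uninjected group was analysed here, and both groups share vector and editor. No label says that each library came from a separate mouse, so the p-values rest on library-to-library spread, which may be technical.

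In the respiratory chain, complex II takes electrons from succinate and complex III passes electrons from ubiquinol to cytochrome c. Complex IV, cytochrome c oxidase, hands them to oxygen, and complex V, the ATP synthase, uses the resulting proton gradient to make ATP. Several complex IV subunits exist in a form typical of heart and skeletal muscle and a form found in most tissues, and oxidative muscle fibres hold more of all these proteins than glycolytic ones.

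The upstream sequences of 4 members are shown, picked by their expression values in the results below. Cytochrome c (Cycs) had the most negative difference between guides, and Cox6a1 was among the 4 positive ones. Cox8a, unlike its muscle counterpart Cox8b, did not share the low values of the other members in a pair of libraries. Each sequence is the 250 bases before the annotated start in RefSeq (GRCm38.p6), written 5′ to 3′ on the gene's strand. The windows are chr6:50566570-50566819 (minus strand) for Cycs, chr5:115348959-115349208 (minus) for Cox6a1, chr7:140900447-140900696 (minus) for Cox8b and chr19:7217617-7217866 (minus) for Cox8a. Capitals mark a match to one of 4 motifs chosen after the expression values were seen.
Cycs: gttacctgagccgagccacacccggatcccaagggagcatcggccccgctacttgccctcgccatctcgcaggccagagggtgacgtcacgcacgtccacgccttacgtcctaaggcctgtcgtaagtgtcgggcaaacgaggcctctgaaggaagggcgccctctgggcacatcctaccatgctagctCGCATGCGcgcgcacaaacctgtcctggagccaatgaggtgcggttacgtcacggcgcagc
Cox6a1: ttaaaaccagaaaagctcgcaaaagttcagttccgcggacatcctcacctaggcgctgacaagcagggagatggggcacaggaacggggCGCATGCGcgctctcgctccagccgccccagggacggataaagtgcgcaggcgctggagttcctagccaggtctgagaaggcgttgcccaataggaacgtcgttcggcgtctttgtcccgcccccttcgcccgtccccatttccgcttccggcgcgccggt
Cox8b: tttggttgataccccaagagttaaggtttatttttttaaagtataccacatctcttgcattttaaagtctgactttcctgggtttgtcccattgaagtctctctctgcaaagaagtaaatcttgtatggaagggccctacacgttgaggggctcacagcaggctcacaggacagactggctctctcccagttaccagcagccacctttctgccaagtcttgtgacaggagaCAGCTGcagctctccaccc
Cox8a: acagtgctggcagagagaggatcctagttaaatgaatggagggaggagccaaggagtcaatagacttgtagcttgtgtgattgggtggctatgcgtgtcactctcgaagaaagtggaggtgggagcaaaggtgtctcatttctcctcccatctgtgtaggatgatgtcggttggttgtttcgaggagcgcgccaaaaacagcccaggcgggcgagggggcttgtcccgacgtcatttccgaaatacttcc
The motifs were CGCATGCG (core of the NRF1 motif), CCGGAAGT (ETS family), TCAAGGTCA (oestrogen-related receptors) and CAGCTG (a muscle E-box), searched on both strands. An upstream entry was found for 34 of the 44 members. The NRF1 core was in 6 of these 34 windows (17.65%), those of Cycs, Cox6a1, Atp5g2, Atp5j, Atp5k and Atp5l, and in 1.75% of the 27025 genes with a window. The ETS letters were in Uqcrh, Uqcr11 and Atp5h (8.82%, against 3.23% of all), the TCAAGGTCA letters in Atp5g3 alone (2.94%, against 0.42%), and the E-box in Cox8b and Atp5b (5.88%, against 14.72%). Cox8a held none of the 4, and neither did Cox7a1, Cox7a2, Sdha and Cox5a, among others. Whether the motifs bear on the members' values was not tested.

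Sequenced reads assigned to genes ranged from 25157486 to 39210248 per library. The targeted gene, Lama1, averaged 216 normalised reads with m31 and 1.61 with control, a log2 difference of 6.60 (limma adjusted p = 0.00372), and it was the one gene of 15960 tested that passed the threshold of 0.05 on the adjusted p (0.00627%). The muscle markers Ckm, Acta1, Ttn and Mylpf were high in all 8 libraries. A pair of libraries, m31 replicate 4 and control replicate 3, stood apart from the rest of their groups in most members. Counts over the 44 members, and medians over them and the other gene lists, are therefore also given without these libraries. In whole muscle, fewer cells of a type and less RNA per cell cannot be told apart.

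No member of the 4 complexes passed the test between guides. On the log2(normalised reads + 1) scale, 40 of 44 members had a negative difference (m31 minus control) and 4 a positive one. Their median difference was -0.08, with a range from -0.25 for Cycs to 0.30 for Cox4i2. Over all genes tested, 7779 differences were negative and 8181 positive, with a median of 0.01. The muscle markers Ckm, Acta1, Ttn and Mylpf had a median difference of similar size (-0.08, 4 of 4 negative). So did 10 fast fibre markers (-0.08, 7 negative and 3 positive). The smallest adjusted p among members was 0.72 (limma, Benjamini-Hochberg over 15960 genes). An unadjusted p under 0.05 was reached by 2 members, Uqcrq and Cycs, against 6.79% of all genes. No member's groups failed to overlap, against 2.02% of all genes lying wholly lower and 1.84% wholly higher with m31. The median standard error of a member's difference was 0.11, which sets the size of difference that 4 libraries per group could show. edgeR and DESeq2 on the recovered reads also called none of the 44, with 2 each at an unadjusted p under 0.05, against 7.02% of all genes with edgeR and 5.38% with DESeq2.

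**Figure D1:**
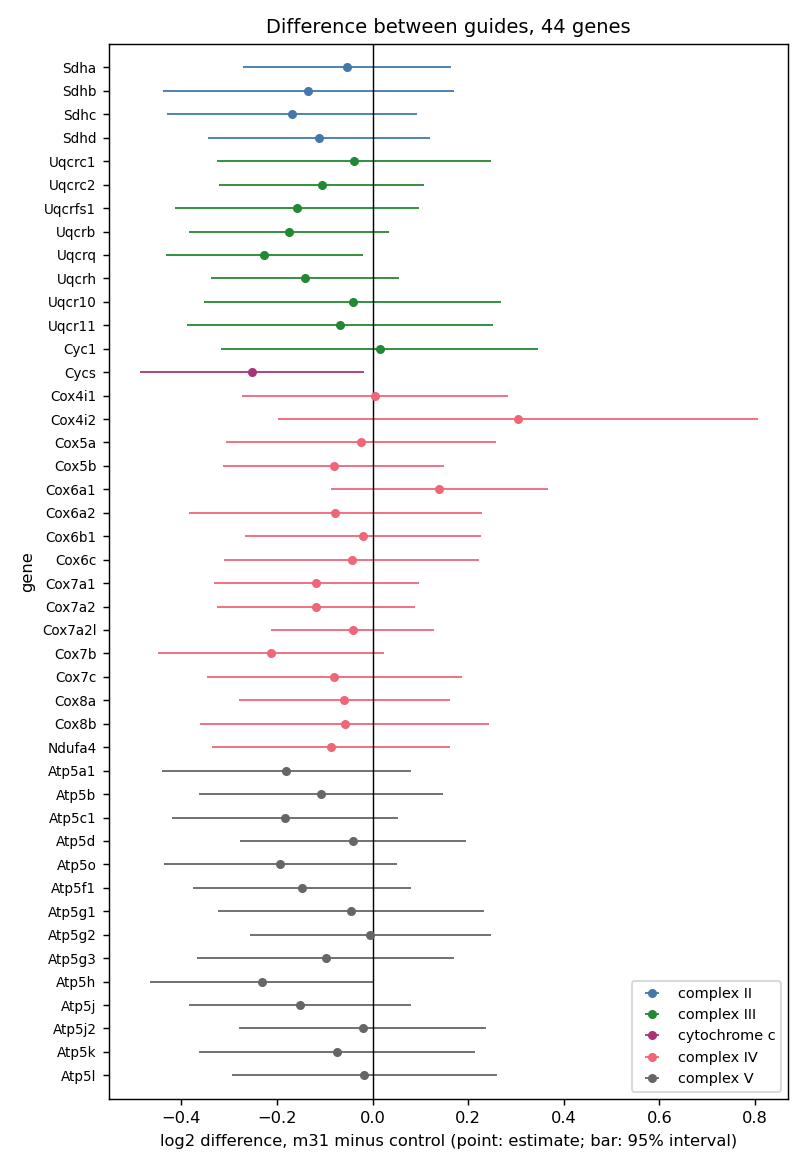
Log2 difference between the m31 and control libraries for each of the 44 genes (points, coloured by complex; bars, 95% intervals from limma; 4 libraries per group). The points lie between -0.25 and 0.30, 40 of them below 0, and 42 of the 44 bars cross 0.

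Complex II oxidises succinate through Sdha, its flavoprotein, and Sdhb, its iron-sulphur subunit, held in the membrane by Sdhc and Sdhd. All 4 differences were negative, with a median of -0.12. Sdhc had 6522, 6526, 7230 and 5472 normalised reads in m31 replicates 1 to 4 and 7595, 7445, 5824 and 8156 in the controls. The groups overlapped because control replicate 3 lay below 3 of the 4 m31 libraries. The difference in Sdhc was -0.17 ± 0.12 (SE, limma adjusted p = 0.83). Sdhd had 5351, 5042, 5341 and 4077 normalised reads with m31 and 5584, 5630, 4646 and 5490 with control, a difference of -0.11 ± 0.11 (adjusted p = 0.87). Here too the lowest value of each group came from m31 replicate 4 and control replicate 3.
Sdhb, the highest of the 4 per transcript length, had 9157, 8358, 10184 and 6947 normalised reads with m31 and 10776, 9796, 7474 and 9951 with control. Its difference was -0.13 ± 0.14. Per kilobase of transcript the mean levels over the 8 libraries were 7951 for Sdhb and 7718 for Sdha, with Sdhd at 4180 and Sdhc at 2159. The differences of Sdhb and Sdha between guides were smaller than their standard errors.

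Complex III carries the Rieske protein Uqcrfs1 and cytochrome c1 (Cyc1) as redox subunits, the core proteins Uqcrc1 and Uqcrc2, and small accessory subunits. Of its 9 members 8 had a negative difference, with a median of -0.11. Uqcrq, a small accessory subunit, had the smallest unadjusted p of all 44 members. It had 6966, 6328, 7226 and 5539 normalised reads with m31 and 7784, 7490, 7165 and 7906 with control. A single crossing, m31 replicate 3 above control replicate 3, made the groups overlap. Its difference was -0.23 ± 0.09 (unadjusted p = 0.0337, limma adjusted p = 0.72).
Uqcrb, the small ubiquinone-binding subunit, had 2678, 2429, 2671 and 2326 normalised reads with m31 and 3062, 2768, 2461 and 3146 with control, and a difference of -0.17 ± 0.09 (limma adjusted p = 0.78). Annotated near-identical copies of Uqcrb held 9.0% as many reads, so its count is uncertain to that extent. Uqcrc1, the highest of the complex per median transcript length (12010 per kilobase), had 20754, 19486, 21824 and 16158 normalised reads with m31 and 21681, 23250, 16153 and 19511 with control. The lows of its groups were almost equal, and the difference was -0.04 ± 0.13. Its rank is uncertain because the principal transcripts of Uqcrq differ in length and place that gene anywhere from 4635 to 17410 per kilobase.
Uqcrfs1 (-0.16), Uqcrh, the hinge protein (-0.14), Uqcrc2 (-0.11), Uqcr11 (-0.07) and Uqcr10 (-0.04) had differences of the same sign. Cyc1 was the exception at 0.02 ± 0.15. None of these passed the test.

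Cytochrome c, the soluble carrier between complexes III and IV, is encoded by Cycs. Its values were 9262, 8163, 9519 and 7774 normalised reads with m31 and 9983, 9350, 9793 and 12329 with control. Control replicate 4 was the highest library, m31 replicate 4 the lowest, and m31 replicate 3 lay above control replicate 2. The difference was -0.25 ± 0.11 (95% interval -0.49 to -0.02, unadjusted p = 0.0368, limma adjusted p = 0.72). Cycs has 4 annotated near-identical copies with 42.9% as many reads as the gene itself, so reads could be split between them. In an alternative chosen after seeing the data, the reads of such copies were added to their members. Then 1 of the 44 members, in place of 2, had an unadjusted p under 0.05 (limma), against 6.78% of all genes. Uqcrq, the other member with such a p before, has no annotated near-identical copy, so its values were unchanged.

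In complex IV, 13 of 16 members had a negative and 3 a positive difference, with a median of -0.06. Among its subunits other than the paired forms compared below, Cox7b, a small membrane subunit, had the smallest p. Its values were 5666, 5379, 5819 and 4660 normalised reads with m31 and 6774, 6029, 5264 and 6933 with control. The difference was -0.21 ± 0.11 (limma adjusted p = 0.77); control replicate 3 lay below 3 of the m31 libraries. The matrix-facing subunits Cox5a (-0.02) and Cox5b (-0.08), the subunits Cox6b1 (-0.02), Cox6c (-0.04) and Cox7c (-0.08), Cox7a2l, a factor of supercomplex formation (-0.04), and Ndufa4, once assigned to complex I (-0.09), differed by less than their standard errors.

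The muscle forms of subunits 6a, 7a and 8 were above their counterparts in all 8 libraries. Cox6a2, the heart and muscle form of subunit 6a, had 14384, 15136, 17227 and 12449 normalised reads with m31 and 17821, 17607, 12024 and 15376 with control. Cox6a1, its widely expressed counterpart, had 579, 628, 725 and 608 with m31 and 578, 615, 503 and 608 with control. Cox6a2 was lowest in m31 replicate 4 and control replicate 3 within its groups, and Cox6a1 in m31 replicate 1 and control replicate 3.
Corrected for transcript length, Cox6a2 made up 94.5% to 96.3% of the pair across libraries. The ratio of Cox6a2 to Cox6a1 reads was 23.3 ± 1.93 (SD, n = 4) with m31 and 27.2 ± 3.16 (SD, n = 4) with control. On the log2 scale it differed by -0.22 ± 0.10 (SE; exact two-sided permutation p = 0.0857, 0.257 after Benjamini-Hochberg adjustment over 6 ratios). The groups overlapped, and the smallest p that 70 arrangements allow is 0.0286.

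Subunit 4 has a common form, Cox4i1, and a form known from lung and from low oxygen, Cox4i2. Cox4i1 had 9551, 8641, 9948 and 7871 normalised reads with m31 and 10200, 10201, 7110 and 8616 with control. Cox4i2 had 73.1, 62.0, 83.7 and 49.7 with m31 and 64.5, 65.8, 38.2 and 49.3 with control. Cox4i2 was thus under 1% of the pair per length, between 0.553% and 0.863%, in every library.
The ratio of Cox4i2 to Cox4i1 reads was 0.00739 ± 0.000882 (SD, n = 4) with m31 and 0.00597 ± 0.000507 (SD, n = 4) with control. The log2 ratio was higher with m31 by 0.30 ± 0.10 (SE), with an exact permutation p = 0.0571, or 0.257 adjusted over the 6 ratios. The groups overlapped at m31 replicate 4, the lowest of its group. The unadjusted p was 0.0286, the smallest possible, with a pseudocount of 5.

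Cox7a1 and Cox7a2, the muscle and common forms of subunit 7a, were closer in level. Cox7a1 had 4614, 4071, 4906 and 3688 normalised reads with m31 and 4751, 4798, 4295 and 4810 with control. Cox7a2 had 2417, 2264, 2553 and 2079 with m31 and 2570, 2461, 2253 and 2825 with control. Both genes differed by -0.12 between guides, and their ratio was 1.85 in both groups (± 0.0756 with m31 and ± 0.108 with control; SD, n = 4; exact permutation p = 1).
Cox8b, the muscle form of subunit 8, had 5750, 5792, 5831 and 5202 normalised reads with m31 and 7150, 6300, 4286 and 6155 with control. Cox8a, its counterpart, had 633, 737, 830 and 727 with m31 and 691, 752, 818 and 780 with control. Control replicate 3 held the lowest Cox8b of all libraries and the highest Cox8a of the controls. The ratio of Cox8b to Cox8a therefore spanned 5.24 in control replicate 3 to 10.3 in control replicate 1, while its group means were 7.78 ± 0.94 with m31 and 7.96 ± 2.10 with control (SD, n = 4; exact permutation p = 1). Its log2 difference had a standard error of 0.22, the widest of the 6 ratios.
Transcripts of these pairs share no identical run longer than 14 bases, the longest being between Cox4i2 and Cox4i1.

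**Figure D2:**
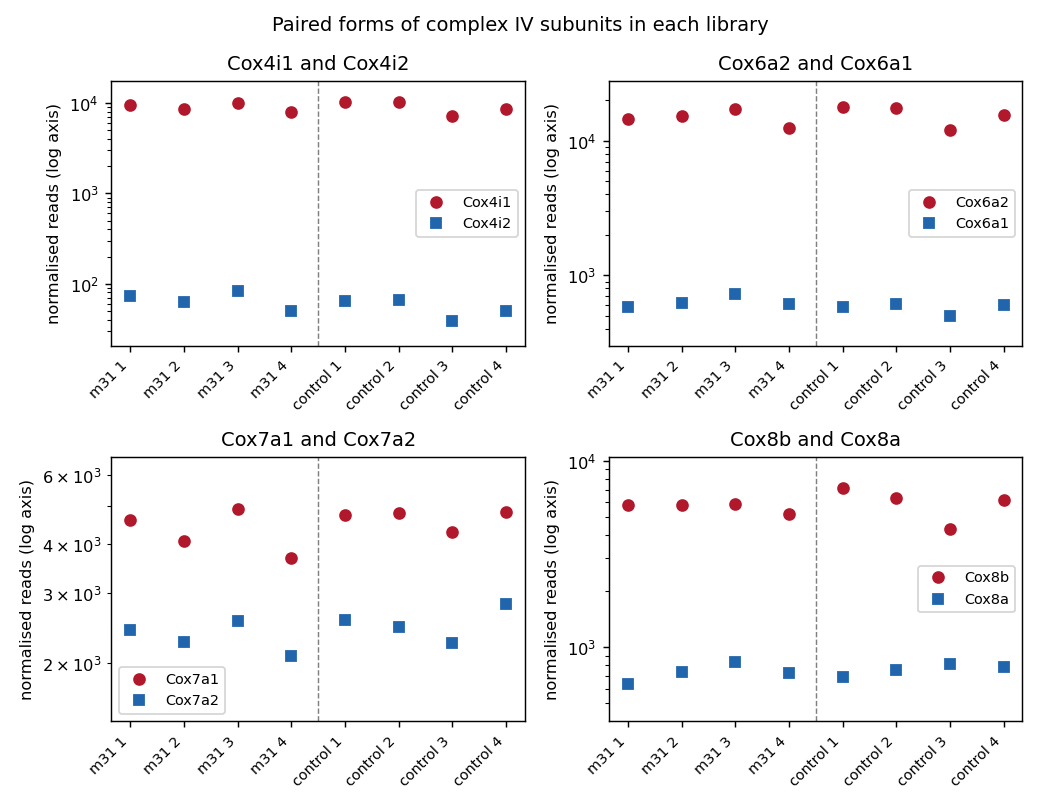
Normalised reads (log axis) of the 4 pairs of complex IV forms in each of the 8 libraries; red circles are the more abundant form and blue squares its counterpart. Cox6a2 has 20.47 to 30.86 times the reads of Cox6a1, Cox7a1 has 1.70 to 1.95 times those of Cox7a2, and Cox8b and Cox8a come closest in control replicate 3, at 5.24 times.

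Complex V had a negative difference in all 14 members, with a median of -0.10 and a range from -0.23 to -0.004. Atp5b, the catalytic beta subunit, had the highest level of all 44 genes per length, 34990 per kilobase. Its values were 67723, 63400, 72151 and 55068 normalised reads with m31 and 71725, 74579, 59883 and 71738 with control. The difference was -0.11 ± 0.12 (limma adjusted p = 0.89), and the groups overlapped over most of their range. Atp5a1, the alpha subunit, was next in level at 24210 per kilobase and differed by -0.18 ± 0.12.
Atp5h, subunit d of the peripheral stalk, had the smallest p of the complex. Its values were 5163, 4965, 5816 and 4560 normalised reads with m31 and 6287, 5685, 5210 and 6917 with control. The difference was -0.23 ± 0.11 (unadjusted p = 0.0531, limma adjusted p = 0.73), and m31 replicate 3 lay above both control replicates 2 and 3.
Atp5o, the protein that joins the stalk to the catalytic head, had 580, 556, 567 and 511 normalised reads with m31 and 732, 654, 520 and 641 with control, a difference of -0.19 ± 0.11 (limma adjusted p = 0.79). Only control replicate 3 lay within the m31 range. Its level of 710 per kilobase was far below those of its partner subunits. The annotation holds a second gene of the same name on the same strand that shares 12.3% of its exon bases. Exons of opposite-strand genes overlap 35.6% of them, and an annotated near-identical copy held 19.9% as many reads, so its count is uncertain.
The central-stalk subunits Atp5c1 (-0.18) and Atp5d (-0.04), the peripheral-stalk subunits Atp5f1 (-0.15) and Atp5j (-0.15), and the membrane subunits Atp5j2 (-0.02), Atp5k (-0.07) and Atp5l (-0.02) did not pass the test. Atp5l is the least certain: its 9 annotated near-identical copies held 113% as many reads as the gene itself.

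The c ring is encoded by Atp5g1, Atp5g2 and Atp5g3, which give the same mature protein. Atp5g1 had 11155, 10690, 12088 and 8779 normalised reads with m31 and 12338, 12140, 8968 and 10682 with control. Atp5g2 had 5740, 5847, 5729 and 5103 with m31 and 6384, 6471, 4565 and 5266 with control. Atp5g3 had 10785, 10218, 11809 and 8934 with m31 and 12642, 11908, 8926 and 11361 with control. Within its group, each of the 3 had its low point in m31 replicate 4 or control replicate 3.
The ratio of Atp5g1 to Atp5g3 reads was 1.02 ± 0.0277 with m31 and 0.985 ± 0.0350 with control (SD, n = 4; log2 difference 0.05 ± 0.03 SE, exact permutation p = 0.143, 0.286 adjusted over 6). The ratio of Atp5g1 to Atp5g2 was 1.90 ± 0.167 and 1.95 ± 0.0636 (SD, n = 4; log2 difference -0.04 ± 0.07 SE, exact permutation p = 0.6, 0.9 adjusted). Copies of Atp5g2 held 48.3% as many reads as the gene. The principal transcripts of Atp5g1 differ so much in length that its level per kilobase could lie anywhere from 2302 to 18210.

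The spread within each group had a common shape across the complexes. The lowest of the 8 libraries was m31 replicate 4 for 23 members (52.3%) and control replicate 3 for 20 (45.5%), against 13.2% and 20.8% of all genes tested. The remaining member, Cox8a, was lowest in m31 replicate 1. The highest library was control replicate 1, 2 or 4 for 40 members and m31 replicate 3 for 4.
In m31 replicate 4 all 44 members lay below the mean of the other m31 libraries, by a median of -0.21 on the log2 scale. In control replicate 3 a total of 43 lay below the mean of the other controls, by a median of -0.37. The medians over all genes were -0.001 and 0.004. Sdhb (-0.41 and -0.44), Cox4i2 (-0.53 and -0.62) and Atp5g1 (-0.36 and -0.38) were low in both libraries. Uqcr11, a small complex III subunit, was at -0.66 in control replicate 3 and at -0.21 in m31 replicate 4.
Cox8a stood outside this pattern, at -0.004 in m31 replicate 4 and 0.14 in control replicate 3. Cycs was at -0.10 and Uqcrq at -0.11 in control replicate 3, nearer to the other controls than the rest. These libraries were singled out after their values were seen, and no test was made of the pattern they share.

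**Figure D3:**
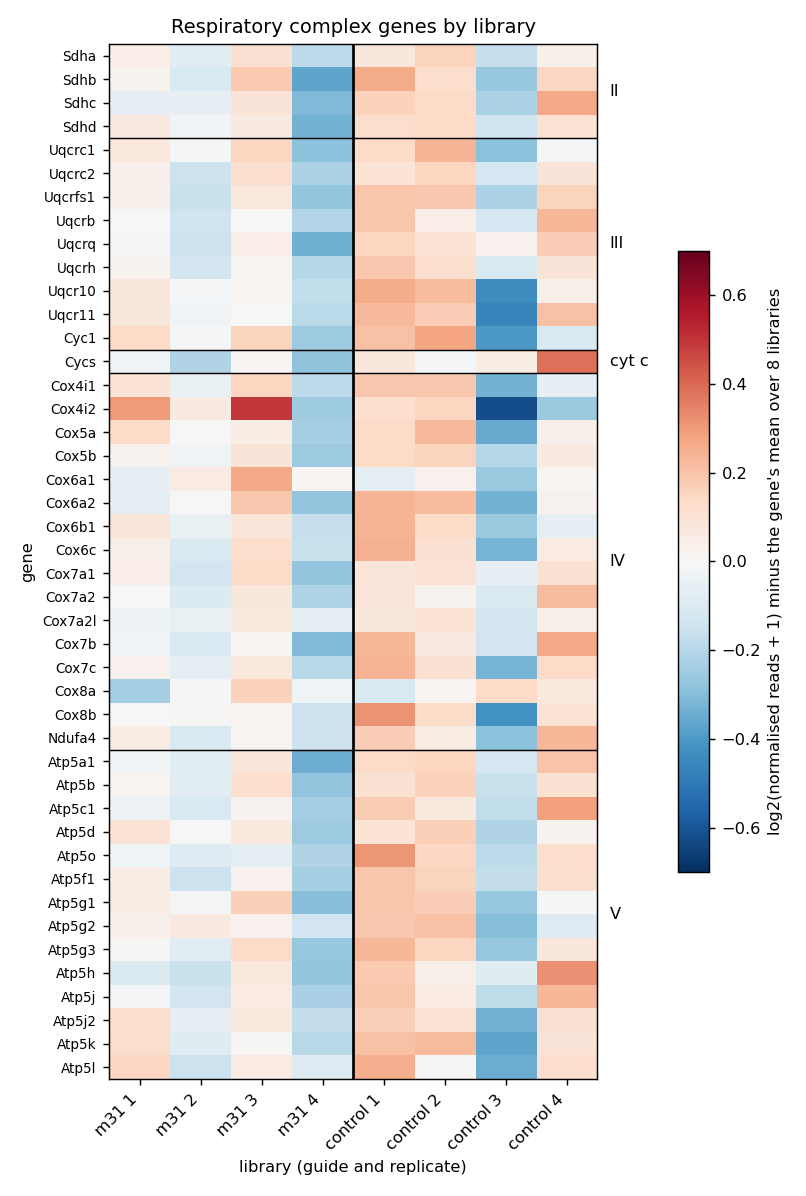
Each gene's log2 value in each library minus its mean over the 8 libraries, by complex (blue, below the mean; red, above). The columns of m31 replicate 4 and control replicate 3 are blue in nearly all rows, the exceptions being Cox6a1 in the former and Cycs, Uqcrq and Cox8a in the latter.

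**Figure D4:**
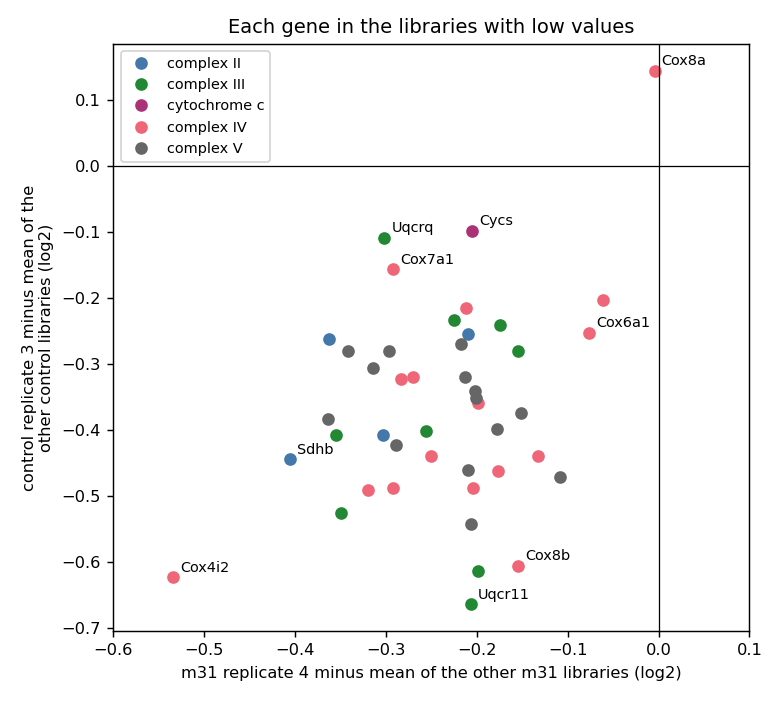
Each of the 44 genes by its log2 difference in m31 replicate 4 from the mean of the other m31 libraries (x axis) and in control replicate 3 from the mean of the other controls (y axis), coloured by complex. Cox8a is the one gene above 0 on the y axis, and no gene lies above 0 on the x axis.

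Leaving out these libraries changed the size of the members' differences and made no member pass. Without control replicate 3 the median was -0.19, 42 of 44 were negative and 19 members had an unadjusted p under 0.05, against 11.9% of all genes; the smallest adjusted p was 0.32 (limma). Without m31 replicate 4 the median was -0.03, with 29 negative and 15 positive, and no member had an unadjusted p under 0.05, against 5.73% of all genes. Without both, an alternative chosen after seeing the data, the median was -0.12, 42 were negative, 10 had an unadjusted p under 0.05 against 10.9% of all genes, and the smallest adjusted p was 0.36 (limma).

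Several lists of markers of other cells and fibre types also stood apart in these libraries. The 10 macrophage markers were all above the mean of the other libraries of the group in both m31 replicate 4 (median log2 difference 1.12) and control replicate 3 (1.20), and so were the 8 fibroblast markers (0.74 and 0.63). Their summed levels ran from 3688 to 8803 normalised reads with m31 and from 2629 to 6284 with control for macrophages, and from 33330 to 129600 and from 25180 to 46720 for fibroblasts. The 10 slow fibre markers, such as Myh7, were lower in m31 replicate 4 (median -0.85, 10 of 10) and less so in control replicate 3 (-0.27, 8 of 10). Of the 10 fast fibre markers, 3 were below in m31 replicate 4 (median 0.03) and 9 in control replicate 3 (-0.41). The 6 tendon markers had medians of 1.04 and 0.40. The 5 endothelial markers differed in sign between the libraries (-0.13 and 0.29), as did the smooth muscle (0.22 and -0.04) and adipocyte markers (-0.06 and 0.56).
Between guides, all 10 slow fibre markers had a negative difference (median -0.39, 5 with an unadjusted p under 0.05), with summed levels of 21280 to 46050 normalised reads with m31 and 37790 to 46000 with control. All 10 macrophage, 8 fibroblast and 6 tendon markers had a positive one (medians 0.52, 0.32 and 0.64, with 1, 3 and 3 at an unadjusted p under 0.05). Of all genes tested, 6.79% reached such a p. The fast fibre markers were mixed (7 negative and 3 positive, median -0.08, none at such a p). The positive ones were Atp2a1, Myoz1 and Tnnc2. Tnnc2 was lowly counted, with means of 35.71 normalised reads with m31 and 30.43 with control, against 193300 and 221900 for Tnni2. Ckm, Acta1, Ttn and Mylpf were all negative (median -0.08, 1 at such a p). The 5 endothelial and 4 adipocyte markers were all positive (medians 0.06 and 0.09, none at such a p). Of 5 smooth muscle markers tested, 4 were positive (median 0.16, 2 at such a p). None of these markers passed the adjusted threshold.
The slow fibre, macrophage, fibroblast and tendon medians were smaller in size without m31 replicate 4. The slow fibre median was then -0.20 with Casq2 and Myoz2 positive, the macrophage median 0.28 with 10 of 10 positive, the fibroblast median 0.20 with Lum negative and the tendon median 0.42 with Scx negative. Without control replicate 3 the medians were -0.51, 0.81, 0.48 and 0.75, with Casq2 as the one marker of opposite sign. Without both they were -0.26, 0.57, 0.28 and 0.53, again with Casq2, Myoz2 and Scx of opposite sign. The fast fibre median was -0.10 without m31 replicate 4 (7 negative and 3 positive, none with an unadjusted limma p under 0.05). It was -0.18 without control replicate 3, with Tnnc2 alone positive and 3 at such a p, against 11.9% of all genes. Leaving out both gave -0.17, with Myh1 and Tnnc2 positive and 3 at such a p, against 10.9%. Ckm, Acta1, Ttn and Mylpf stayed negative, with medians of -0.08 without m31 replicate 4 and -0.16 without control replicate 3 or without both. In the same order, the endothelial medians were 0.10, 0.12 and 0.13 and the smooth muscle medians 0.10, 0.15 and 0.09. The adipocyte medians were 0.11, 0.23 and 0.27. The part of these cell and fibre types in the members' values was not tested.

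**Figure D5:**
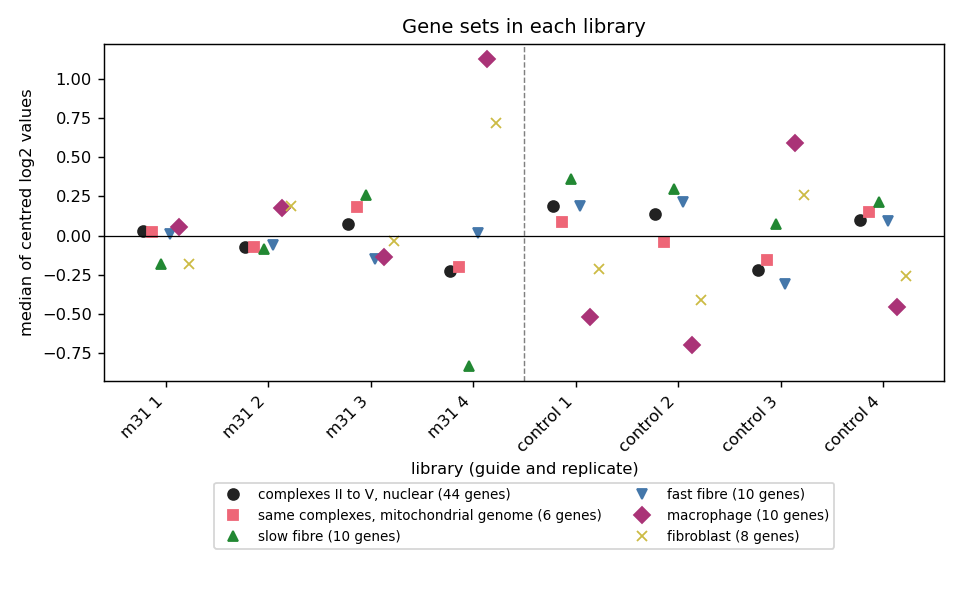
Median, in each library, of the centred log2 values of the 44 nuclear genes (black circles), the 6 mitochondrially encoded subunits of the same complexes and 4 marker sets. Compared across libraries, the black circles are lowest (-0.23 and -0.22) and the macrophage diamonds highest (1.13 and 0.59) in m31 replicate 4 and control replicate 3. Below the black circles lie slow fibre in m31 replicate 4 (-0.83) and fast fibre in control replicate 3 (-0.31).

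The 6 subunits of these complexes that the mitochondrial genome encodes took 7.54% to 9.38% of the reads in genes, against 1.16% to 1.42% for the 44 nuclear ones. All 6 were below the mean of the other libraries of the group in both m31 replicate 4 (median -0.23) and control replicate 3 (-0.24). Between guides 4 were negative and 2 positive (median -0.05), from -0.11 for mt-Co2 to 0.09 for mt-Atp8, and none was called. Without m31 replicate 4 the median was 0.01 (2 negative, 4 positive), without control replicate 3 it was -0.10, and without both it was -0.04. mt-Co1, the catalytic core of complex IV, differed by -0.04 ± 0.17.

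Of 46 assembly factors and further subunits of the same complexes, 41 were tested; Sco2, Pet117, Cox7b2, Cox8c and Cyct were not analysed here. None passed the test in either direction, 26 had a negative and 15 a positive difference, and the median was -0.03. Without m31 replicate 4, 18 were negative and 23 positive (median 0.02), without control replicate 3 the counts were 34 and 7 (-0.08), and without both 25 and 16 (-0.03). Cox11 (0.26 ± 0.15) and Cox10 (0.23 ± 0.15), which serve copper insertion and haem synthesis for complex IV, and Ttc19, a complex III factor (0.14 ± 0.10), were among the positive ones. Sdhaf3, an assembly factor of complex II (-0.20 ± 0.10), and Surf1, of complex IV (-0.15 ± 0.09), were among the negative ones. The ATP synthase epsilon subunit Atp5e differed by -0.01 ± 0.16. Cox6b2, the testis form of subunit 6b, was lowly counted, with 17.1, 13.5, 25.5 and 20.0 normalised reads with m31 and 13.4, 12.4, 18.0 and 1.33 with control, and control replicate 4 alone was far below the rest.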

How the data were processed

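Total RNA from 8 gastrocnemius samples was sequenced. The deposited table gives, for each Ensembl mouse gene, normalised reads (a signal: read counts divided by 1 size factor per library, by the authors), and the submitters' processing notes name STAR, DESeq2 and GRCh38.p12, a human build, without versions. The counter, strand setting, annotation and filters were not given in the sources used here. Of 11 value columns, 3 matched no sample and were not used. Every value was a whole multiple of 1 read within 0.01, in 100% of cases, so reads were recovered; 5 construct entries (0.023% to 0.142% of reads) were left out.

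limma 3.58.1 (R 4.3.3, intensity trend) tested log2(value + 1) over the 15960 genes with a mean of at least 10, with Benjamini-Hochberg adjustment. edgeR 4.0.16 (quasi-likelihood) and DESeq2 1.42.0 on recovered reads were alternatives and called 1 and 31 genes. Paralog ratios were tested by exact permutation over 70 arrangements. Levels per kilobase used the median length of the principal transcripts in GENCODE M21 (GRCm38), where near-identical copies were sought with blastn 2.17.0 (at least 95% identity over 150 bases): 17 members had one. Opposite-strand exons of other genes overlap Atp5o, Uqcrc2, Cox5a, Atp5j, Cox6a2 and Cox4i1 among others. Procedures were tested on simulated data.

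Values per library were given for the paralogs, Cycs and, in each complex, the 2 members of smallest p and the one of highest level. Members and lists were chosen with earlier results of these data known.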

Additional observations from a re-analysis of the deposited data

Results flagged for a closer look

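In 7 of 100 groups of 4 libraries examined, the lowest library lay farther from the others than the 95% critical value of Dixon's ratio allows; chance alone gives about 1 in 20. In control replicate 3 these were Sdhd (4646 normalised reads, next 5490), Uqcrfs1 (7947, next 10330), Uqcr11 (3170, next 4919), Cox7a1 (4295, next 4751) and Atp5j2 (4983, next 6740). In m31 replicate 4 they were Cox8b (5202, next 5750) and Atp5g2 (5103, next 5729). The 100 groups share libraries and members that vary together, so they are not independent.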

How the results depend on the processing

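No member passed the threshold under any of the 19 alternatives to the limma fit, and the members' median stayed negative in all of them. Leaving out 1 library gave medians from -0.186 to -0.0261; quantile normalisation gave -0.0545 (36 negative, 8 positive), centring on library medians -0.116 (42 and 2, with a median of -0.03 over all genes), edgeR -0.093, DESeq2 -0.09 and adding near-identical copies, an alternative chosen after seeing the data, -0.0768. Of 44 members, 29 kept their sign in every alternative. The other 15, all with small differences, changed it in 1 or more: Cyc1 ran from -0.116 to 0.11 with 1 library left out, Cox4i1 from -0.105 to 0.0687, Cox8a from -0.122 to 0.0084, Atp5l from -0.135 to 0.0639, Uqcrc1 from -0.141 to 0.0498, Uqcr10 from -0.195 to 0.0375, Cox5a from -0.146 to 0.0491, Cox6a2 from -0.201 to 0.0016, Cox6b1 from -0.11 to 0.0554, Cox6c from -0.159 to 0.031, Atp5d from -0.117 to 0.0382, Atp5g1 from -0.141 to 0.0457, Atp5g2 from -0.104 to 0.064, Atp5j2 from -0.136 to 0.0323 and Cox8b from -0.21 to 0.0361. Quantile normalisation gave 0.0055 for Cox5a, 0.0093 for Cox6b1, 0.0403 for Atp5g2 and 0.021 for Atp5j2. Centring gave -0.0202 for Cyc1 and -0.0302 for Cox4i1, edgeR -0.002 and -0.0063, DESeq2 -0.003 for Cox4i1, and leaving out m31 replicate 4 with control replicate 3 gave -0.029 and -0.0423; the cause was not tested.

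With 1 library left out, the log2 ratio of Cox4i2 to Cox4i1 differed by 0.236 to 0.37 and that of Cox6a2 to Cox6a1 by -0.278 to -0.154; the unadjusted exact permutation p reached 0.0286 for the first without m31 replicate 4 (0.37) or with a pseudocount of 5 (0.28), and for the second without control replicate 3 (-0.278). Cox7a1 to Cox7a2 ran from -0.0397 to 0.0253 (0.0 with a pseudocount of 0.5), Cox8b to Cox8a from -0.187 to 0.14 (-0.0002 with a pseudocount of 5) and Atp5g1 to Atp5g2 from -0.0925 to 0.0057.

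Samples with the same replicate number did not vary together (correlations of 0.046, -0.047, -0.125 and -0.184), and no library correlated best with its own number. With the replicate block the members' median was -0.0809, 0 members were called and none had an unadjusted p under 0.05, against 5.43% of all genes.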
